A study of Mus musculus with 4 samples.

Results

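Hedgehog pathway genes were followed in tumors of Lewis lung carcinoma (LLC) cells, a mouse lung cancer line, labelled as expressing chemerin (LLC-Chem) or as wild type (LLC). The set held 9 of the 47729 genes in the deposited table, named by their place in the pathway: the ligands Shh and Ihh, the receptors and membrane proteins Ptch1, Smo and Hhip, the transcription factors Gli1, Gli2 and Gli3, and the Gli inhibitor Sufu. They were chosen by their pathway role but with the RPM values of all 4 libraries and the LLC-Chem against LLC differences in view, so their own values, and whether they met the rule for a call, are given as a description from which nothing is concluded. LLC-Chem tumors came from LLC cells transfected with pEFIN plasmids for bioactive murine chemerin (1-157), and control LLC tumors from cells labelled wild type. Both were grafted under the skin of syngeneic C57BL/6 mice, and both were taken 5 days after the graft. The age of these mice is not among the labels, and the study's methods give only a general range for its mice. Each of the 2 libraries of a group held the RNA of 3 pooled tumors, or 6 tumors a group. Chemerin-expressing cells were collected as individual clones after selection, so a difference between clones and an effect of chemerin cannot be told apart. The study also describes cells with an empty vector, and whether the control tumors carried it is not given.

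In the Hedgehog pathway a secreted ligand binds Patched at the primary cilium, which frees Smoothened from inhibition, and Smoothened in turn lets the Gli factors act on their target genes. Gli1 and Gli2 act mainly as activators and Gli3 largely as a repressor when no ligand is bound, while Sufu holds Gli factors back in the cytoplasm. Gli1, Ptch1 and Hhip are themselves classical targets, and in carcinomas the ligand is often made by tumor cells and read by the surrounding stroma.

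Gli2 and Hhip, the members with the largest differences in opposite directions, are shown with the 250 bases before their RefSeq start sites on GRCm38.p6. The sequences read 5′ to 3′ in the direction of the gene, at chr1:119053620-119053869 (minus strand) for Gli2 and chr8:80058009-80058258 (minus strand) for Hhip. Capitals mark the GC box GGGCGG or its reverse complement CCGCCC.
Gli2: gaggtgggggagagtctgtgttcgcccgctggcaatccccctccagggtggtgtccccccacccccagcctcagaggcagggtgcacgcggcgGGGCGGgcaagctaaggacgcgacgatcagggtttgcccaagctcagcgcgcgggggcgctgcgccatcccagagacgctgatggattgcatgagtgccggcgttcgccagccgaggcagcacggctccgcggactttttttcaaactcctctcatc
Hhip: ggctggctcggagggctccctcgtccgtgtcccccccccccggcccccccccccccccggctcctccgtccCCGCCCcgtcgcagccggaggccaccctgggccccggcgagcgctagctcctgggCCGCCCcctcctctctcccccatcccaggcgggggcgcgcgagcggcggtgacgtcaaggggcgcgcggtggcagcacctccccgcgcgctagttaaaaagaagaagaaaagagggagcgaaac
A GC box stood in 6 of the 7 members with an entry, against 32.7% of all 32851 promoters of this length. Gli2 held 1 GC box and Hhip held 2. The GLI binding site GACCACCCA, or TGGGTGGTC on the other strand, was in 0 of the 7 members and in 0.225% of all promoters, which says only that these letters are not in this window. The share of G and C was 67.2% for Gli2 and 76.0% for Hhip, beside a median of 52.4% over all promoters.

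Levels are in RPM, reads scaled to a library of 1000000, and the libraries were estimated from the steps between deposited values to hold 28470000 to 33990000 reads. At this depth a floor of 3 reads lies between 0.088 and 0.105 RPM, counting error alone considered. Nothing in the labels ties tumors to a particular culture, so p-values measure the spread between these pools. Pools of a group differed beyond counting error (chi-square of 59.7 per gene for LLC and 24.8 for LLC-Chem). Rarres2, the gene of chemerin itself, was at 102 and 98.2 RPM in LLC and at 106 RPM in both LLC-Chem pools and did not pass the test (limma adjusted p = 0.541). Its RNA level thus does not show the difference that the labels name, and LLC-Chem and LLC stand for the labelled groups throughout. RNA of whole tumors is not a measure of secreted protein. The study reports that medium from the cultured chemerin cells activated a chemerin receptor, and that medium from empty-vector cells did not. In tumor RNA, fewer cells of a type and less RNA per cell cannot be told apart. The carcinoma markers Krt8 and Krt18 carried nearly all of a 4-gene sum of 306 and 263 RPM in LLC and 262 and 195 RPM in LLC-Chem, and Epcam and Cdh1 were too low to test, whereas Nkx2-1, a lung epithelial factor, was at 0 in every pool.

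The ligands were close to the limit of detection in both groups. Shh (ENSMUSG00000002633, chromosome 5, 28456815 to 28467256, minus strand, GRCm38), the best studied ligand, was at 0 RPM in 3 pools and at 0.0999 RPM in LLC pool 2, where this value stood for 2 reads. Ihh (ENSMUSG00000006538, chromosome 1, 74945315 to 74951672, minus strand), known for its role in cartilage and gut, measured 0.0999 and 0.05 RPM in LLC and 0.150 RPM in both LLC-Chem pools. The LLC-Chem values for Ihh rest on 4 or 5 reads each, and no difference in either ligand was detectable at this depth. In Shh, 28.3% of exon bases also lie under genes of the opposite strand, and whether counting used strand is not given in the sources used here. Dhh (ENSMUSG00000023000), the third ligand and not a member, measured 1.25 and 1.10 RPM in LLC and 1.15 and 1.00 RPM in LLC-Chem. Per kb of exon it averaged 0.267 (LLC) and 0.244 (LLC-Chem) RPM, above Ihh at 0.0246 and 0.0492 RPM per kb. Its log2 fold change of -0.09 (SE 0.24) did not pass the test (limma with Benjamini-Hochberg adjustment over all genes tested, adjusted p = 0.795). For Dhh 25.2% of exon bases are shared with other genes.

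Ptch1, the receptor that the ligands bind, stood at similar levels in both groups. Ptch1 (ENSMUSG00000021466, chromosome 13, 63508328 to 63573598, minus strand) measured 26.4 and 24.3 RPM in LLC and 25.6 and 26.8 RPM in LLC-Chem. The groups overlapped, with means of 25.4 ± 1.48 RPM for LLC and 26.2 ± 0.884 RPM for LLC-Chem (SD, n = 2 each) and a log2 fold change, LLC-Chem minus LLC, of 0.05 (SE 0.12). Smo (ENSMUSG00000001761, chromosome 6, 29735503 to 29761365, plus strand), the signal transducer that Patched holds back, measured 89.7 and 109 RPM in LLC and 118 and 111 RPM in LLC-Chem. Both LLC-Chem pools were above both LLC pools, but LLC pool 2 lay closer to LLC-Chem than to LLC pool 1. The log2 fold change of Smo was 0.21 (SE 0.13), and it was not called.

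Among the 9 members Hhip alone had both LLC-Chem values under both LLC values. Hhip (ENSMUSG00000064325, chromosome 8, 79965851 to 80058006, minus strand), a membrane protein that binds and sequesters the ligands, measured 2.00 and 0.95 RPM in LLC and 0.0999 and 0.05 RPM in LLC-Chem. The mean of LLC was 1.47 ± 0.742 RPM (SD, n = 2), and that of LLC-Chem was 0.0750 ± 0.0353 RPM (SD, n = 2). In reads, LLC held 87 and LLC-Chem 4, which after division by the library totals made LLC 24.8 times higher, with a 95% exact interval of 9.33 to 92.9 that covers counting error only. The LLC pools differed from each other by more than their lower value. The mean of 0.775 RPM over all pools was below the 1 RPM needed for the test, so Hhip has no call.

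Gli2 showed the largest fold change of the 6 tested members. Gli2 (ENSMUSG00000048402, chromosome 1, 118834132 to 119053619, minus strand), the main activator downstream of Smoothened, measured 8.40 and 7.15 RPM in LLC and 47.6 and 45.8 RPM in LLC-Chem. The pools of a group lay close together and the groups were far apart, with means of 7.77 ± 0.883 RPM for LLC and 46.7 ± 1.27 RPM for LLC-Chem (SD, n = 2 each), a ratio of 6.01. The log2 fold change of 2.52 (SE 0.14) placed Gli2 at position 25 from the largest rise among the 13694 genes tested.

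Gli1 (ENSMUSG00000025407, chromosome 10, 127329882 to 127341974, minus strand), the target and amplifier of the pathway, was low but moved in the same direction. It measured 0.800 and 1.20 RPM in LLC and 2.75 and 2.85 RPM in LLC-Chem, from 24 reads in the lowest pool to 94 or 95 in the highest. Averaged, LLC stood at 0.999 ± 0.283 RPM and LLC-Chem at 2.80 ± 0.0706 RPM (SD, n = 2 each), a ratio of 2.80 and a log2 fold change of 1.15 (SE 0.25). Gli1 reached the minimum of 1 RPM through the LLC-Chem pools, since its LLC mean was just under it. Among its exon bases 6.55% are shared, in part with Arhgap9 on the opposite strand, which measured 37.0 and 48.2 RPM in LLC and 20 and 12.3 RPM in LLC-Chem.

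Gli3 and Sufu differed little. Gli3 (ENSMUSG00000021318, chromosome 13, 15463235 to 15730026, plus strand), the factor best known as a repressor, measured 52.8 and 45.9 RPM in LLC and 57.9 and 60.3 RPM in LLC-Chem, with a log2 fold change of 0.26 (SE 0.11). Its groups did not overlap, and it was not called. Sufu (ENSMUSG00000025231, chromosome 19, 46396896 to 46488804, plus strand) measured 39.8 and 43.2 RPM in LLC and 39.7 and 40.0 RPM in LLC-Chem, a log2 fold change of -0.06 (SE 0.11) with overlapping groups.

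**Figure D1:**
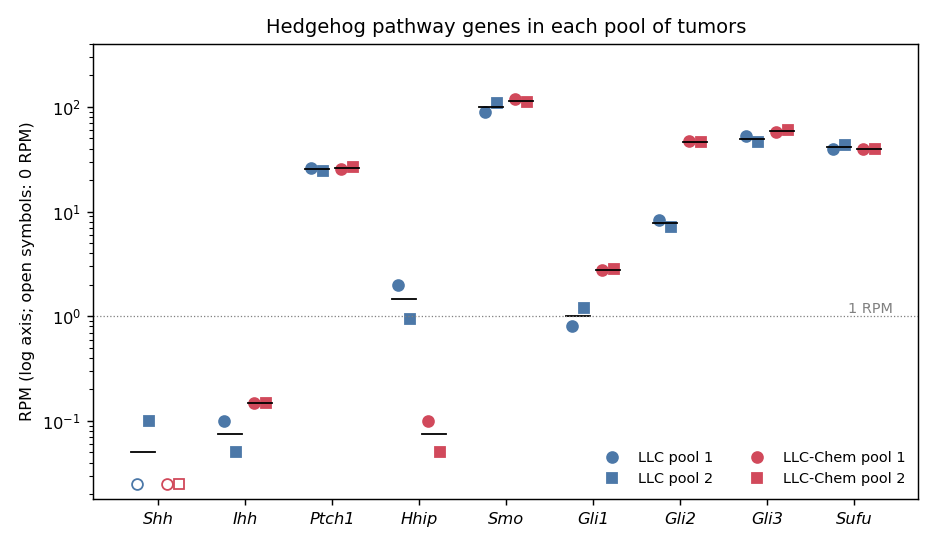
RPM (log axis) of the 9 Hedgehog pathway genes in each of the 4 pools, with LLC in blue, LLC-Chem in red, circles for pool 1, squares for pool 2, black lines for group means above 0, open symbols for 0 RPM and a dotted line at the 1 RPM set as minimum mean for the test. Gli2 lies between 7.15 and 8.40 RPM in LLC and between 45.8 and 47.6 RPM in LLC-Chem, Hhip is at 0.0999 and 0.05 RPM in the LLC-Chem pools, and the groups of Ptch1 and Sufu overlap.

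Of the 9 members 6 passed the filter on low values, and 2 of these, Gli1 and Gli2, were called higher in LLC-Chem. Of all genes tested 23.0% were called, 9.54% higher and 13.5% lower. The other 4 tested members were not called, and Hhip, Shh and Ihh were not tested. Among the 6 tested members 4 had groups that did not overlap with LLC-Chem higher, as did 33.1% of all genes tested, and a further 39.3% of these did not overlap with LLC-Chem lower. Because the members were proposed with these values in view, nothing is read from their counts. With any 1 pool left out limma called 0 genes in the whole table, while the log2 fold change stayed between 2.41 and 2.63 for Gli2 and between 0.96 and 1.34 for Gli1.

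The make-up of the Gli factors per exon length differed between the groups. Gli2 measured 1.22 and 1.04 RPM per kb in LLC and 6.93 and 6.67 RPM per kb in LLC-Chem. Gli3 measured 5.50 and 4.78 RPM per kb in LLC and 6.03 and 6.29 RPM per kb in LLC-Chem. Thus per kb Gli3 was above Gli2 in both LLC pools and below it in both LLC-Chem pools. In RPM not divided by length Gli3 was above Gli2 in every pool, at 57.9 and 60.3 against 47.6 and 45.8 RPM in LLC-Chem. The crossing therefore depends on the lengths used, the merged annotated exons of a gene (9589 bases for Gli3 and 6869 bases for Gli2). As a share of the 3 factors per kb, Gli2 made up 17.8% and 17.2% in LLC and 51.3% and 49.3% in LLC-Chem. Gli1 stayed between 2.32% and 4.22% of the 3 factors in the 4 pools. Their sum was 6.89 and 6.06 RPM per kb in LLC and 13.5 RPM per kb in both LLC-Chem pools.

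**Figure D2:**
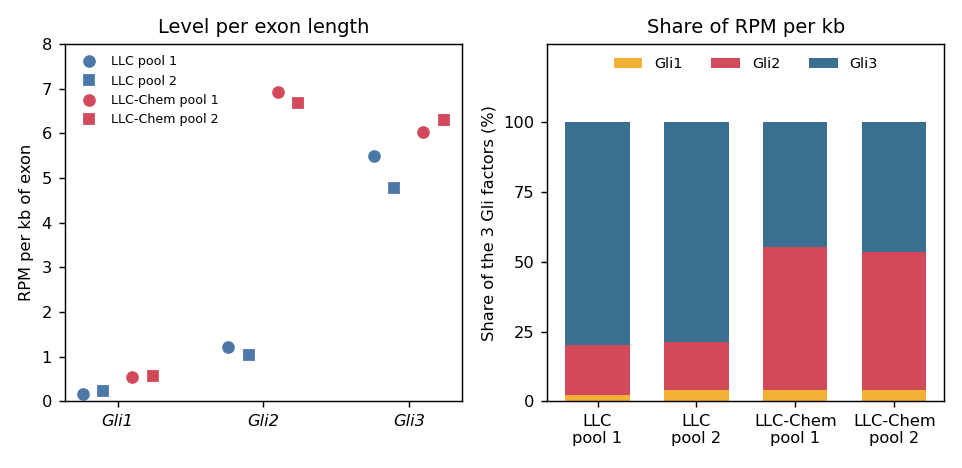
Left, RPM per kb of exon of Gli1, Gli2 and Gli3 in each pool, with LLC in blue and LLC-Chem in red. Right, share of the summed RPM per kb of the 3 factors in each pool, where Gli2 takes 17.2% and 17.8% in LLC and 49.3% and 51.3% in LLC-Chem.

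Per kb of exon, the order of the members differed between the groups. In LLC the means ran from Smo over Sufu, Gli3, Ptch1, Gli2, Gli1, Hhip and Ihh to Shh. In LLC-Chem they ran from Smo over Gli2, Gli3, Sufu, Ptch1, Gli1, Ihh and Hhip to Shh. Smo was the highest in 4 of 4 pools, from 15.9 to 21.0 RPM per kb. Gli3 and Sufu overlapped in LLC, at 5.50 and 4.78 RPM per kb against 5.18 and 5.62 RPM per kb. In LLC-Chem both Gli3 pools, at 6.03 and 6.29 RPM per kb, were above both Sufu pools, at 5.17 and 5.20 RPM per kb, and both Gli2 pools were above these. Ptch1, at 1.72 to 1.89 RPM per kb, was above Gli2 in LLC and below it in LLC-Chem. Hhip and Gli1 overlapped in LLC, at 0.220 and 0.105 RPM per kb against 0.160 and 0.240 RPM per kb, whereas Hhip was below Ihh in LLC-Chem. Shh and Ihh overlapped in LLC, and the places of Ihh, Shh and, in LLC-Chem, Hhip rest on 5 reads or fewer a pool.

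The genes whose profiles over the 4 pools were closest to Gli1 included, by the Euclidean distance of centred log2(RPM + 0.5) values, Ahdc1 (0.034) and Narf (0.039). Ahdc1 measured 24.7 and 32.5 RPM in LLC and 62.0 and 62.7 RPM in LLC-Chem, and Narf 24.9 and 33.3 RPM in LLC and 62.9 and 63.7 RPM in LLC-Chem. With 4 points in 2 groups, such a likeness says only that the genes share the step between groups and the order of the LLC pools.

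A wider list of 70 pathway genes, none of them members, was read from the same test. It was drawn up with earlier results of these data known. Of its genes 64 were tested, 10 rose (15.6%, against 9.54% of all genes tested), 9 fell (14.1%, against 13.5%) and 45 were not called. The median log2 fold change was 0.10, beside -0.04 over all genes tested.

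Of 5 tested receptor and co-receptor genes, the latter presenting the ligand to Patched, 2 rose and 3 were not called. Cdon (ENSMUSG00000038119) rose, with 46.5 and 68.5 RPM in LLC and 292 and 275 RPM in LLC-Chem, at a log2 fold change of 2.32 (SE 0.19, limma adjusted p = 0.00809). Boc (ENSMUSG00000022687), its close relative, also rose, with 6.8 and 8.75 RPM in LLC against 23.8 and 22.3 RPM in LLC-Chem, at a log2 fold change of 1.52 (limma adjusted p = 0.0123). In both genes the pools of a group lay close together beside the gap between the groups. Gas1, a membrane-anchored co-receptor, measured 95.5 and 64.8 RPM in LLC and 132 and 102 RPM in LLC-Chem, and did not pass (log2 fold change 0.56, limma adjusted p = 0.118).

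Among genes for the making and release of the ligand, 1 of 5 tested fell and 4 were not called. Disp2 (ENSMUSG00000040035), a relative of the ligand exporter Dispatched, fell from 36.7 and 24.9 RPM in LLC to 2.25 and 3.15 RPM in LLC-Chem. Its log2 fold change of -3.28 (SE 0.26, limma adjusted p = 0.00721) was the furthest from 0 of the 64 genes. Disp1, the exporter itself, measured 27.9 and 42.4 RPM in LLC and 41.3 and 43.1 RPM in LLC-Chem, where the groups overlapped.

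In the group of cilium and Smo traffic genes, 4 of 14 rose, 2 fell and 8 were not called. The 4 that rose were Arl13b, a GTPase of the ciliary membrane (log2 fold change 0.70, limma adjusted p = 0.0164), Iqce (0.80, adjusted p = 0.0184) and Efcab7 (0.79, adjusted p = 0.0285), which tether the EVC complex in the cilium, and Gpr161 (0.67, adjusted p = 0.0329, and 0.0513 without a trend in the variance prior of limma). Gpr161 is a ciliary receptor known to restrain the pathway, so the genes that rose do not all act in 1 direction. Arrb2, an arrestin, fell from 116 RPM in both LLC pools to 65.3 and 60.5 RPM in LLC-Chem (log2 fold change -0.87, limma adjusted p = 0.0117). Grk2, a kinase that phosphorylates Smoothened, fell too, at 163 and 176 RPM in LLC against 129 and 110 RPM in LLC-Chem (log2 fold change -0.51, limma adjusted p = 0.0367), a call that limma without the trend (adjusted p = 0.0713) and edgeR did not make.

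Of 16 genes that control the Gli proteins, such as kinases and ubiquitin ligase subunits, 1 rose and 15 were not called. Stk36, the Fused kinase, rose from 6.85 and 7.5 RPM in LLC to 13.0 and 17.2 RPM in LLC-Chem (log2 fold change 1.01, limma adjusted p = 0.0255). The median of the group was 0.08.

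Genes reported elsewhere as Gli targets went both ways. Of 24 tested, 3 rose and 6 fell, with a median log2 fold change of -0.39. Bmp4, a growth factor, rose from 1.70 and 2.55 RPM in LLC to 10.2 and 9.20 RPM in LLC-Chem (log2 fold change 1.98, limma adjusted p = 0.0126). Foxf1, a mesenchymal transcription factor, rose, with 6.45 and 4.45 RPM in LLC and 10.2 and 11.8 RPM in LLC-Chem (0.97, limma adjusted p = 0.0367). Nr2f2, a nuclear receptor, also rose (0.83, limma adjusted p = 0.0382, and 0.0647 without the trend). Prdm1, a transcriptional repressor, fell from 6.50 and 5.10 RPM in LLC to 1.80 and 0.850 RPM in LLC-Chem (-1.83, limma adjusted p = 0.0211). Ccnd1 and Ccne1, cyclins of the G1 phase, fell with log2 fold changes of -1.05 (limma adjusted p = 0.0150) and -0.97 (limma adjusted p = 0.0209). Both cyclins are controlled by many other pathways.

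**Figure D3:**
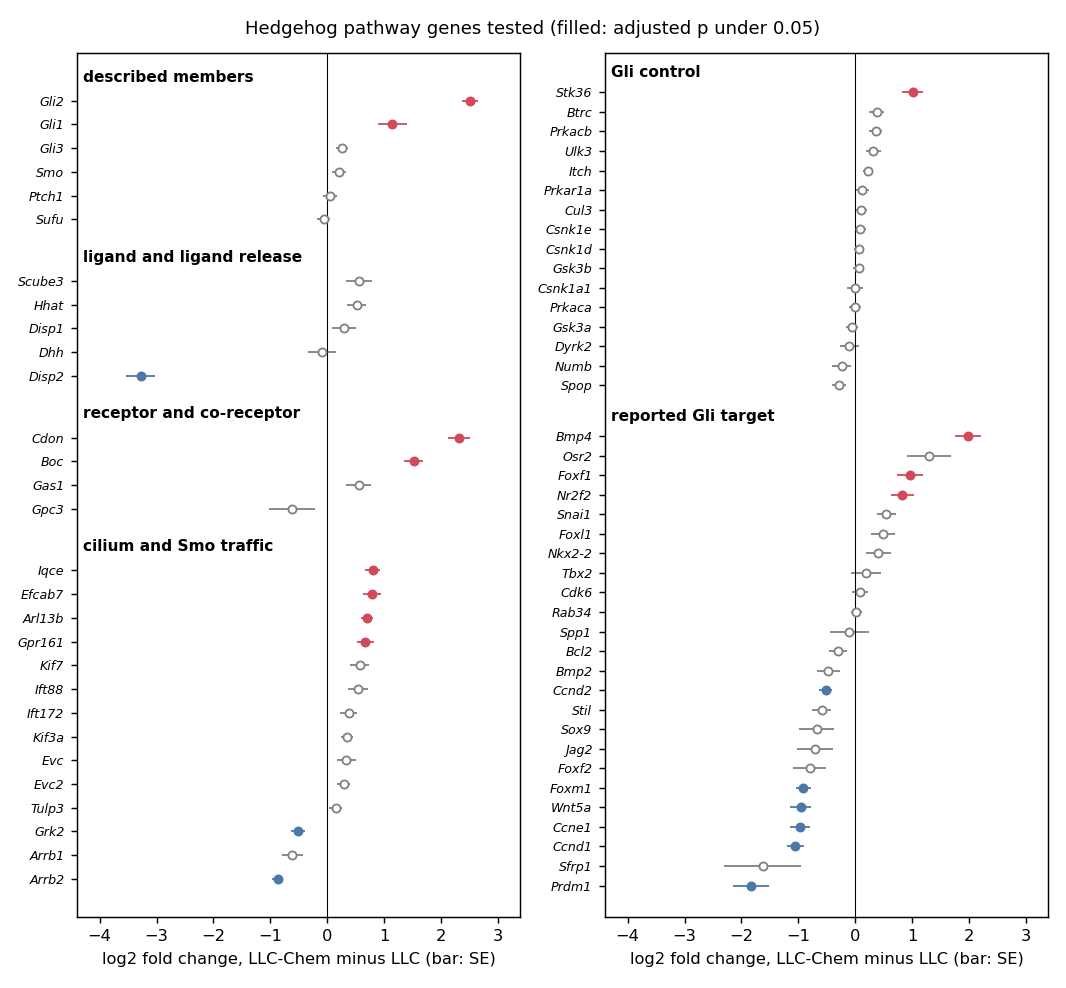
Log2 fold change, LLC-Chem minus LLC, of the 6 tested members and 63 of the 64 tested genes of the wider list by role, with bars for the SE and filled points for adjusted p under 0.05 (red higher, blue lower). Gli2 (2.52), Cdon (2.32) and Bmp4 (1.98) lie furthest to the right and Disp2 (-3.28) furthest to the left.

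Marker genes of other cell types differed between the same pools, and their part in the results on Hedgehog genes was not tested. All 5 endothelial markers fell, with a summed level of 198 and 138 RPM in LLC and 46.0 and 24.8 RPM in LLC-Chem. Of 7 mural cell markers 5 fell, with sums of 185 and 140 RPM in LLC and 69.4 and 47.3 RPM in LLC-Chem. Of 4 tested leukocyte markers 3 fell, and the list summed to 443 and 518 RPM (LLC) against 288 and 175 RPM (LLC-Chem). Among the 3 was Ncr1, at 2.20 and 2.50 RPM in the LLC pools but resting on 6 reads and 1 read in the LLC-Chem pools. Ncr1 reached the minimum of 1 RPM only through LLC, where it was high, so its call is no support. The 7 fibroblast markers summed to 12043 and 20749 RPM in LLC and 8750 and 7034 RPM in LLC-Chem, mostly from Col1a1 and Col1a2. These markers went both ways, since Pdgfra rose (log2 fold change 0.72, limma adjusted p = 0.0450) and Col1a1 (-1.51, limma adjusted p = 0.0334) and Col1a2 (-1.46, limma adjusted p = 0.0383) fell. Both LLC-Chem pools were above both LLC pools in Dcn (0.80) and Lum (1.00) and below them in Thy1 (-0.91). None of these was called, and in Fap the groups overlapped. Markers of cell types known for strong Hedgehog signalling were low, with chondrocyte sums of 1.15 to 2.15 RPM and keratinocyte and hair follicle sums of 2.35 to 4.95 RPM. Schwann cell markers, a known source of Dhh, summed to 40.6 and 15.7 RPM in LLC and 31.8 and 47.6 RPM in LLC-Chem. Adipocyte markers summed to 28.0 and 20 RPM in LLC and 39.6 and 14.2 RPM in LLC-Chem. Of 3 tested adipocyte markers Cfd rose, with 1.40 RPM in both LLC pools and 15.1 and 4.10 RPM in LLC-Chem (log2 fold change 2.16, limma adjusted p = 0.0466). The LLC-Chem pools lay far apart in Cfd. Skeletal muscle markers summed to 0.750 to 1.35 RPM.

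**Figure D4:**
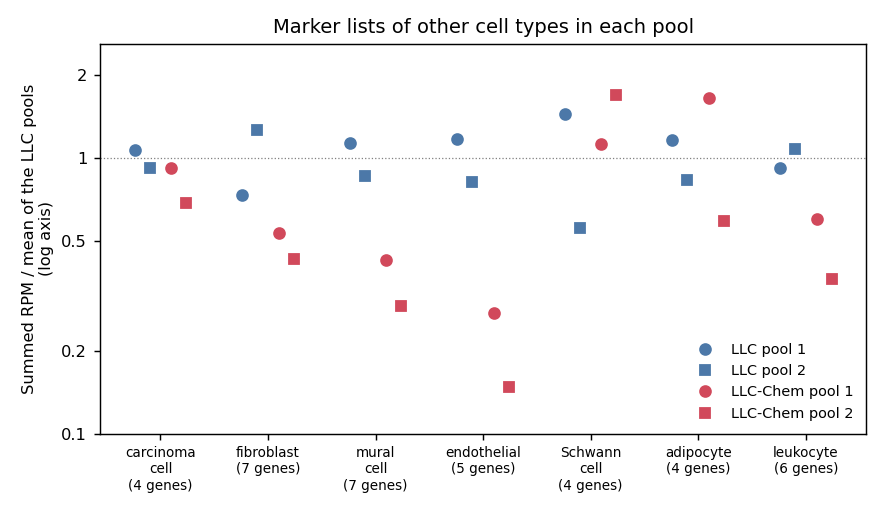
Summed RPM of marker lists in each pool, divided by the mean of the LLC pools (log axis), for lists that reach 10 RPM in a pool, with LLC in blue and LLC-Chem in red. Endothelial, mural, leukocyte and fibroblast sums are lower in both LLC-Chem pools, the carcinoma sum is lower by a narrow margin (263 RPM in the lower LLC pool and 262 RPM in the higher LLC-Chem pool), and Schwann cell and adipocyte sums overlap. Col1a1 and Col1a2 make up most of the fibroblast sum in every pool.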

How the data were processed

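RNA from 4 pools of tumors was sequenced. Per the labels and the study's methods, paired-end reads were aligned by the authors to GRCm38.p4 with STAR and counted per gene with HTSeq, in versions not given in the sources used here, and RPM were deposited. Of the deposited RPM values 100% are whole steps of 0.04997 (tolerance 0.01 steps), from which library totals were fitted and reads recovered to within 1 read. That values were scaled to 20000000 reads and rounded up was inferred, so values of a few reads are overstated. Groups and replicate numbers are from the labels.

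Groups were compared in R 4.3.3 by limma 3.58.1 (lmFit, eBayes with trend, two-sided) on log2(RPM + 0.5), over the 13694 genes averaging 1 RPM or more, with Benjamini-Hochberg adjustment and calls at an adjusted p under 0.05. Fold changes are on this scale, which understates those of low genes. With 2 pools against 2, an exact permutation test of 1 value cannot go below p = 0.33. The fit of library totals was tested on 4 simulated libraries, with a largest error of 0.00241%. These were made with the same scaling and rounding, so the inferred rule itself was not tested. The limma fit was tested on data simulated with its own variances, which cannot show whether calls hold in these pools. Alternatives used edgeR 4.0.16 and DESeq2 1.42.0 on recovered reads, other filters, pseudocounts and scalings, limma without trend, a replicate block, a crossed pairing (chosen after seeing the data), and each pool left out. The members and lists were chosen with earlier results of these data known. All 9 members are named, with each called gene of a role group of the wider list with up to 6 calls, otherwise the 3 with the largest change in each direction, plus Dhh, Boc, Cdon and Gas1. Results for a few further genes are not reported here. Disp1 was chosen after its values were seen. Coordinates are from GENCODE M21, which holds 47310 (99.1%) of the 47729 identifiers, and promoters from RefSeq on GRCm38.p6, where Gli1 and Shh had no entry in the table used.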

Additional observations from a re-analysis of the deposited data

How the results depend on the processing

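The members were chosen with these values in view, so their values under alternatives are a description. Over all alternatives the log2 fold change ran from 2.41 to 2.64 for Gli2, from 0.93 to 1.53 for Gli1 and from -3.10 (pseudocount 0.1) to -1.17 (pseudocount 1) for Hhip, and neither Gli2 nor Gli1 was called when all genes above 0 were tested. Hhip met the rule for a call with a minimum of 0.5 RPM, which it passes only through LLC, so that the call is no support. Testing all genes above 0 in any pool left 1 gene called higher and 0 lower, and 0 and 0 of the wider list, with 3394 and 4003 genes at an unadjusted p under 0.05 (21 and 13 of the list) by limma. With 1 pool left out, 1 group has a single sample that is assumed to vary like the other group, and limma called 0 genes in either direction, also in the wider list, with 998 to 2359 genes higher and 1580 to 2823 lower at an unadjusted p under 0.05. Limma without trend called 891 genes higher and 1271 lower (9 and 7 of the list), without Gpr161, Grk2, Nr2f2 and Ccnd2. On recovered reads edgeR called 1566 genes higher and 1621 lower (13 and 8 of the list) and DESeq2 1874 and 2269 (18 and 9 of the list, Gas1 among the 18).

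Same-numbered pools shared only a number, with a correlation of -0.14 between their deviations. The replicate block called 549 genes higher and 1064 lower, where the fit without it called 1306 and 1848, and it called 7 and 7 genes of the wider list and Gli2 but not Gli1. Among the named genes of the list Efcab7, Gpr161, Grk2, Foxf1, Nr2f2 and Ccnd2 lost their call with the block. Crossing the pairs, which was chosen after seeing the data, called 1579 genes higher and 2320 lower. For single genes 317 values kept their direction and side of the threshold, 118 lost their call, 1 gained it, 0 reversed, and 6 values without a test moved by more than the spread between pools. Depth limits Shh, Ihh and the LLC-Chem level of Hhip.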
